A study of Mus musculus with 6 samples.

Results

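ISG+ dendritic cells (DC) were compared with CD103+ DC1 from the same kind of tumor and host, with 2 libraries of each population. The 4 libraries were chosen by their labels, as all samples of hosts labelled Rag2-/- among the 6 libraries of the series. Fibrosarcoma cells of the mouse line MC57, carrying the model antigen SIY (MC57-SIY), had been placed under the skin of C57BL/6 mice, and DC were sorted from the pooled tumors on day 7. Rag2 is needed to assemble antigen receptors, so mice without it lack mature T and B cells. The other 2 libraries held ISG+ DC from hosts labelled WT. They shared in the estimate of the spread, and their values stand beside the others. No sort gate is given for either population, and the tumors of a library were pooled. The labels speak of 2 independent experiments, and p-values measure the spread between these libraries.

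CD103+ DC1 are conventional DC that depend on the transcription factors Batf3 and Irf8 and are known for presenting antigens of dying cells to CD8+ T cells. ISG usually stands for interferon-stimulated gene, and CD11b+ DC carrying such genes have been described in tumors. Lineage, interferon, MHC and phagocytic receptor genes set the 2 populations apart by definition or by lineage, so the account below turns to metabolism, adhesion, signalling, transcription and trafficking.

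Values are normalized CPM, that is counts scaled to a common library size after TMM normalization (trimmed mean of M-values), given as replicate 2 and then replicate 3, or 1 and then 2 for hosts labelled WT. Where values are set against others, CD103+ DC1 comes first. Fold changes are on the log2 scale, ISG+ DC over CD103+ DC1, with their standard error (SE). The estimated counts of a library summed to 14378365 and 6023510 for CD103+ DC1, to 15368616 and 13545968 for ISG+ DC, and to 11440669 and 10455861 for ISG+ DC of hosts labelled WT. Rag2 was read first, as a check of the host labels. It gave 2.59 and 1.88 CPM in CD103+ DC1 and 2.52 and 0.146 CPM in ISG+ DC, and 0 in both libraries of hosts labelled WT. The region that the Rag2-/- allele lacks is not given, and reads outside it would check nothing, so these counts do not settle the host labels.

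Markers of DC1 and of CD11b+ DC went with the population labels, although no sort gate is given. Xcr1, a chemokine receptor of DC1, had 315 and 230.1 CPM in CD103+ DC1 and 4.53 and 9.04 CPM in ISG+ DC. Itgae, which encodes CD103, had 323 and 422 against 0.692 and 7.00 CPM. Clec9a, a receptor for dying cells, had 408 and 300.1 against 14.3 and 6.34 CPM. Itgam, which encodes CD11b, had 84.7 and 73.5 CPM in CD103+ DC1 and 1149.6 and 1375 CPM in ISG+ DC. Sirpa and Csf1r had 42.1 and 6.84 against 655 and 690.1 CPM and 32.8 and 40.9 against 436 and 619.7 CPM. The populations did not overlap for any of the 6 genes. Csf1r is also on the macrophage and monocyte list, and these 6 genes do not check the ISG part of the label. The summed level of 88 interferon-stimulated genes was 15962 and 16903 CPM in CD103+ DC1 and 26744 and 24320 CPM in ISG+ DC. In ISG+ DC of hosts labelled WT it was 18347 and 18599 CPM, nearer to CD103+ DC1. Of 86 tested members, 26 rose in the test described below, 2 fell and 58 did not pass.

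Of 13223 genes tested, 488 (3.69%) passed an adjusted p of 0.05 in the quasi-likelihood test of edgeR, adjusted by Benjamini and Hochberg's method over all genes, and these are named called genes. In ISG+ DC 374 (2.83%) were higher and 114 (0.862%) lower. The smallest called change was 0.97 on the log2 scale. Without an adjustment, 1972 genes had p under 0.05. Both ISG+ DC libraries lay above both CD103+ DC1 libraries for 23.9% of tested genes and below both for 22.0%, so an absence of overlap is common here. The median log2 fold change of all tested genes was -0.018.

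Markers of other cells moved in places. Of 33 tested macrophage and monocyte markers, 17 rose in ISG+ DC and 1 fell. The summed level of all 34 in the table was 1973 and 2193 CPM in CD103+ DC1 and 4941 and 7253 CPM in ISG+ DC, and Cd5l was at 0 in all 4 libraries. Of 5 tested neutrophil markers, Il1r2 and Trem1 rose, Trem1 losing the call without ISG+ DC replicate 2 or 3 (adjusted p = 0.0579 and 0.161), while S100a8, S100a9, Mpo, Elane and Camp were at 0 in all 4. Among 4 B cell markers, Fcrla fell from 29.96 and 15.6 CPM to 0 in both ISG+ DC libraries, a call lost without CD103+ DC1 replicate 2 (adjusted p = 0.0628) and without ISG+ DC replicate 2 or 3 (0.103 and 0.13), while Ms4a1 and Blk were at 0 in all 4. Fcrla passed the low-count filter only through CD103+ DC1 libraries. No member passed among 9 T cell, 4 NK cell, 7 plasmacytoid DC, 18 fibroblast and fibrosarcoma matrix, 2 mast cell and 6 erythroid or platelet markers. In edgeR without adjustment, 7 of these had p under 0.05, and DESeq2 called 2 higher and 1 lower. In bulk libraries, fewer cells of a type and less RNA per cell cannot be told apart. The part of macrophage or monocyte RNA in the results below was not tested.

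Of 267 tested genes on the lists of DC and macrophage identity, interferon, MHC and phagocytic receptor genes, 85 rose and 23 fell (40.4% called). Outside those lists 289 of 12956 genes rose and 91 fell (2.93% called, against 3.69% over all genes). Of 1617 tested genes on 34 functional lists, 141 rose and 28 fell (10.5% called), and 222 called genes were on no list. The functional lists overlap the lists above, so some genes, such as Itgal, were counted in both. The counts by list show rises well above the share for all genes in matrix and protease genes, chemokine receptors, the NF-kB pathway and Src and Syk signalling. The lists were written with earlier results of these data known, so their shares describe the lists and test nothing. No member was called in 5 lists, namely TCA cycle, oxidative phosphorylation, cholesterol synthesis, Rab and Arf GTPases, and cytosolic ribosomal proteins. In that order, 6, 11, 2, 14 and 26 of their members had an unadjusted p under 0.05 in edgeR, and DESeq2 called 0, 4, 1, 8 and 4.

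**Figure D1:**
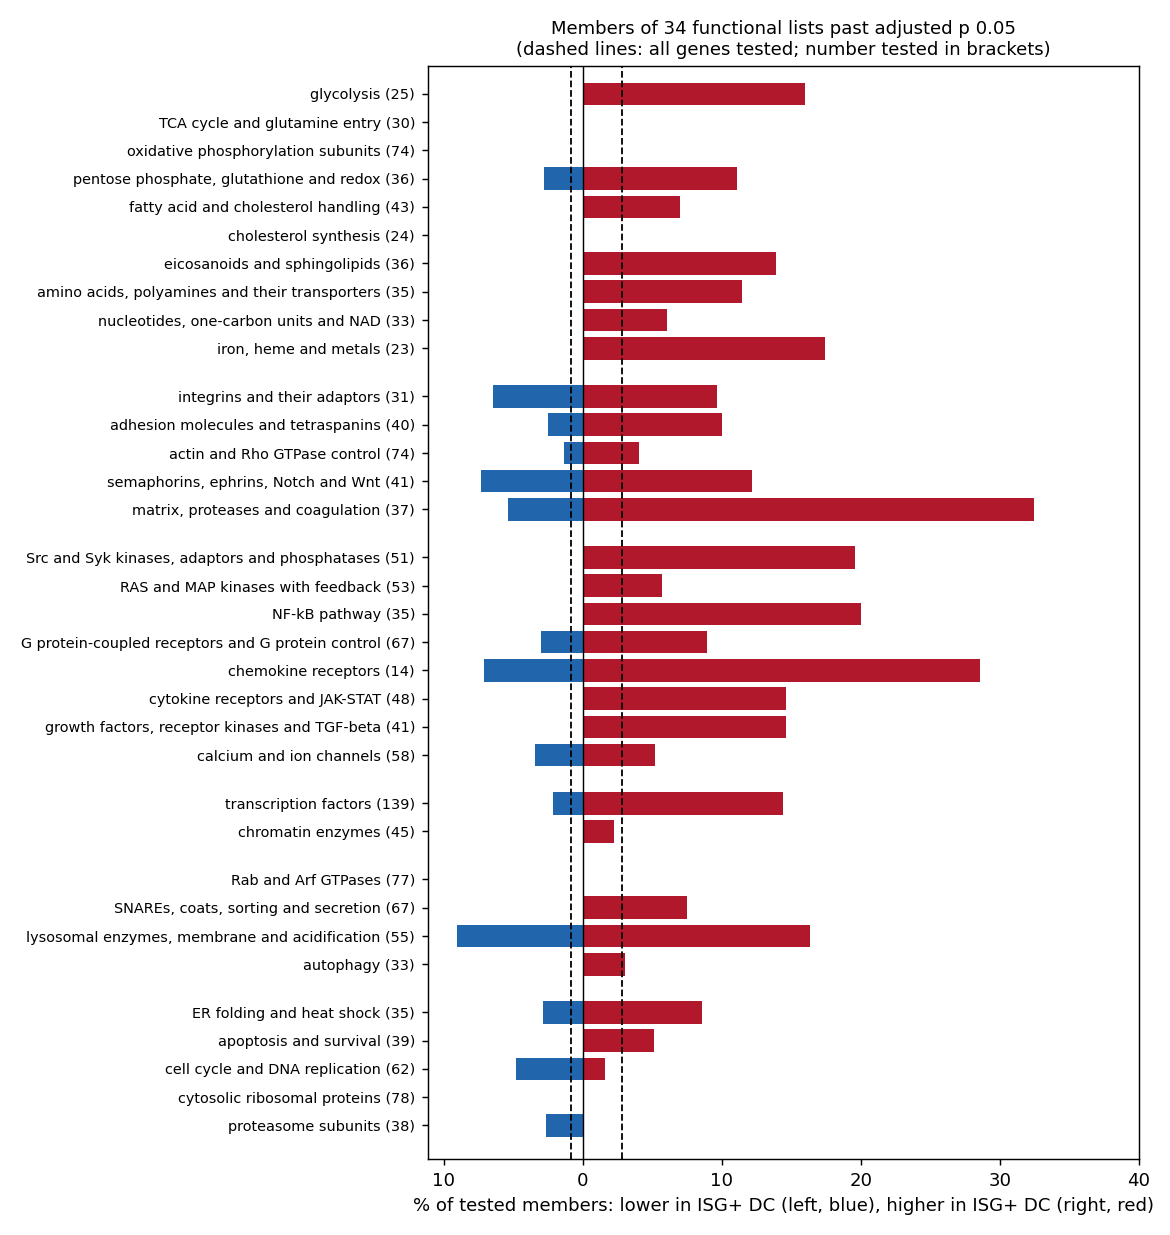
Share of the tested members of each functional list that were called, in percent; red bars to the right are genes higher in ISG+ DC, blue bars to the left genes lower in ISG+ DC. Dashed lines mark the shares over all 13223 tested genes, 2.83% and 0.862%. The longest red bar is that of matrix, proteases and coagulation, with 12 of 37 members. The lists were written with earlier results of these data known.

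The CD103+ DC1 libraries were less alike than the ISG+ DC libraries. Over all tested genes the median absolute log2 ratio between replicates, on CPM + 0.5, was 0.753 in CD103+ DC1 and 0.489 in ISG+ DC. More than 2-fold lay between the replicates for 5236 genes in CD103+ DC1 and 3510 in ISG+ DC. Spearman's rho over tested genes was 0.882 between the CD103+ DC1 libraries and 0.934 between the ISG+ DC libraries. Among the 374 called rises, 336 had at least 1 count in each CD103+ DC1 library. The shallower replicate 3 alone was at 0 for 19, and both libraries were at 0 for 18. These 18 passed the low-count filter only through ISG+ DC libraries. Cyp4f18, Alox5, F11r, Emr4 and Kif5c, named below, are among them, and their p-values are no independent support for a rise.

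**Figure D2:**
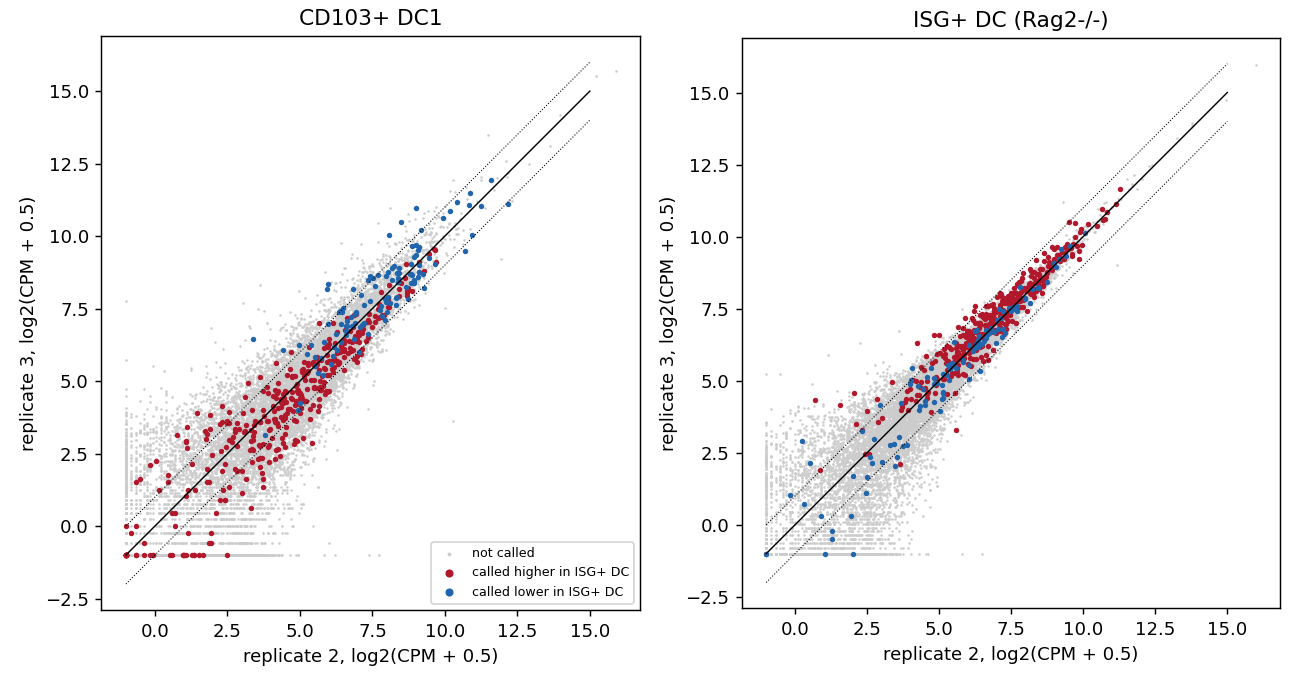
Replicate 3 against replicate 2 for CD103+ DC1 (left) and ISG+ DC of hosts labelled Rag2-/- (right), each point a tested gene on the log2(CPM + 0.5) scale; red and blue points are genes called higher and lower in ISG+ DC. The solid line marks equal values and dotted lines a 2-fold difference; 106 of the 374 red genes lay more than 2-fold apart in CD103+ DC1 and 22 in ISG+ DC.

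The number of calls depended on which library was left out. Of the 374 rises, 345 kept their call without each CD103+ DC1 library in turn, 175 without ISG+ DC replicate 2 and 104 without ISG+ DC replicate 3. Of the 114 falls, 83, 25 and 17 did. Without CD103+ DC1 replicate 2, which leaves the shallow library alone, 1096 rises and 640 falls were called. Without replicate 3 the counts were 456 and 115. A lone library was there assumed to vary like the other groups. Rises and falls also lost calls without a library of hosts labelled WT, which is outside the contrast but shares in the estimate of the spread. In all 6 such fits, 98 rises and 13 falls kept their call, and for 74 and 8 of them the fold change also moved by less than 1.5 times. These are called steady below.

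**Figure D3:**
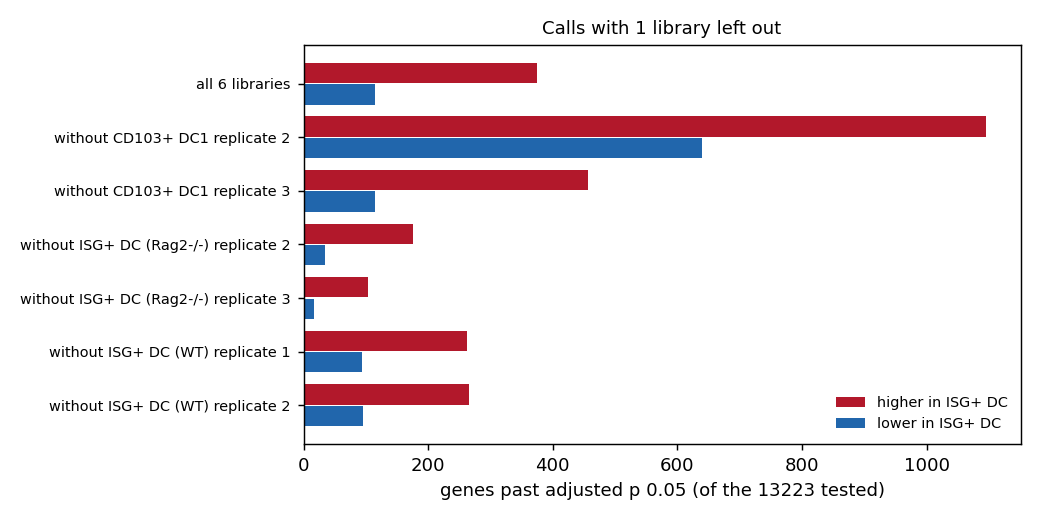
Number of called genes (horizontal axis, of 13223 tested) with all 6 libraries and with each library left out in turn; red bars are genes higher and blue bars genes lower in ISG+ DC. The counts run from 104 to 1096 for rises and from 17 to 640 for falls.

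Metabolic genes showed 26 rises and 1 fall among 359 tested. The smallest p belonged to the phagocyte NADPH oxidase, which makes superoxide at membranes. Cybb, its membrane-bound catalytic subunit, had 26.2 and 35.7 CPM in CD103+ DC1, 653 and 792 CPM in ISG+ DC and 982 and 1108 CPM in ISG+ DC of hosts labelled WT. The change of 4.55 ± 0.29 (log2 ± SE) had the smallest adjusted p of all genes on the functional lists, 8.88e-05. Ncf1, the cytosolic oxidase subunit p47phox, had 205 and 204 against 282 and 284 CPM and did not pass, with a change of 0.47 ± 0.23 (adjusted p = 0.386). The groups did not overlap for either gene, and both ISG+ DC libraries lay above both CD103+ DC1 libraries for 23.9% of all tested genes.

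The Cybb promoter is shown because this gene had the largest steady rise among metabolic genes with reads in every library. It is the RefSeq sequence of GRCm38.p6, chrX:9469275-9469574 on the minus strand, from 250 bases before to 50 after the start. Capitals mark matches to an interferon response element core (GAAANNGAA, 3 matches), AP-1 (TGANTCA, 1 match) and RUNX (TGTGGTT, 1 match), on either strand.
Cybb: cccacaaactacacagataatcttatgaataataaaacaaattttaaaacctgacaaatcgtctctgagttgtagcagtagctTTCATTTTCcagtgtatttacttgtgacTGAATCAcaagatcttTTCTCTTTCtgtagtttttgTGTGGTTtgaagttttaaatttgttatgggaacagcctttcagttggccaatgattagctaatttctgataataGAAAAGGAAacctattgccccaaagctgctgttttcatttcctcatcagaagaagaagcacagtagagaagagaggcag

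In glycolysis, 4 of 25 tested members rose and none fell, with a list median of 0.77. Eno1, the enolase of the pathway, had 361 and 336 CPM in CD103+ DC1 and 946 and 1144 CPM in ISG+ DC, a rise of 1.58 ± 0.22 (adjusted p = 0.00297). The other rises were the glucose transporter Slc2a1 (1.72 ± 0.38), the lactate exporter Slc16a3 (2.10 ± 0.38) and Pfkfb4 (3.28 ± 0.51), an enzyme that sets the level of fructose 2,6-bisphosphate. None of the 4 kept its call without ISG+ DC replicate 3, where adjusted p ran from 0.0745 for Pfkfb4 to 0.256 for Slc2a1. Slc2a1 also lost it without ISG+ DC replicate 2 (adjusted p = 0.163) or a library of hosts labelled WT (0.0562 and 0.0638), and Pfkfb4 had a change of 4.12 without CD103+ DC1 replicate 2. Gapdh, a highly read glycolytic gene, had 784 and 662 against 862 and 1204 CPM and did not pass (adjusted p = 0.346). Pkm2, the pyruvate kinase, had 540.2 and 328 against 858 and 865 CPM (adjusted p = 0.0809).

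Respiratory chain genes differed between the CD103+ DC1 libraries. None of 74 oxidative phosphorylation subunits was called, and their median was -0.43. The summed level of all 81 in the table was 4046 and 6385 CPM in CD103+ DC1 against 3397 and 3787 CPM in ISG+ DC, so replicate 3 of CD103+ DC1 stood above the other 3. Uqcrb, a subunit of complex III, had 73.6 and 333 CPM in CD103+ DC1 and 87.6 and 40.01 CPM in ISG+ DC. Without CD103+ DC1 replicate 2, 17 of the 74 were called lower in ISG+ DC, and without replicate 3 none. Taldo1, the transaldolase of the pentose phosphate pathway, was the 1 metabolic fall, from 487 and 623 to 254 and 226 CPM (-1.21 ± 0.25, adjusted p = 0.0227), and the call was lost without either ISG+ DC library (adjusted p = 0.185 and 0.344) or either library of hosts labelled WT (0.0664 and 0.0672).

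The 3 named leukotriene genes had few or no reads in CD103+ DC1. Cyp4f18, a cytochrome P450 that oxidises leukotriene B4, was at 0 in both CD103+ DC1 libraries and had 19.1 and 22.4 CPM in ISG+ DC. Against a limit of 3 counts over the CD103+ DC1 group, its mean in ISG+ DC was 145-fold higher (adjusted p = 0.00145). Alox5, the 5-lipoxygenase that starts leukotriene synthesis, was also at 0 in CD103+ DC1 and had 9.75 and 30.6 CPM in ISG+ DC (adjusted p = 0.0164). Cyp4f18 and Alox5 passed the low-count filter only through ISG+ DC libraries, so their p-values are no independent support. Ltb4r1, a leukotriene B4 receptor, had 1.59 and 0 against 34.2 and 33.2 CPM (adjusted p = 0.0145). Calls of the last 2 genes were lost without ISG+ DC replicate 2 (adjusted p = 0.0519 and 0.0888) and without replicate 3 (0.379 and 0.114). For Ltb4r1 the change of 5.17 ± 0.97 became 11.58 and 4.41 without CD103+ DC1 replicate 2 and 3. In all, 5 of 36 eicosanoid and sphingolipid genes rose.

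Lipid, nucleotide and amino acid genes with a steady rise were few. Lrp1, an endocytic receptor for lipoproteins and many other ligands, had 241 and 156 CPM in CD103+ DC1 and 846 and 1431 CPM in ISG+ DC (2.52 ± 0.31, adjusted p = 0.00162). Gda, which deaminates guanine, rose from 23.1 and 36.4 to 213 and 246 CPM (2.95 ± 0.30, adjusted p = 0.000755). Slc43a2, a transporter of large neutral amino acids, went from 28.04 and 35.2 to 168 and 135 CPM (2.26 ± 0.29, adjusted p = 0.00195). All 3 were as high or higher in hosts labelled WT, at 2447 and 2681, 521 and 546 and 253 and 279 CPM. In their lists, 3 of 43 fatty acid and cholesterol handling, 2 of 33 nucleotide and 4 of 35 amino acid genes rose. Arg1, an arginase that is also a macrophage marker, had 21.7 and 8.55 against 60.4 and 90.6 CPM (2.29 ± 0.41, adjusted p = 0.011), with an adjusted p of 0.155 without ISG+ DC replicate 3 and a change of 3.13 without CD103+ DC1 replicate 2.

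Of the 23 iron, heme and metal genes, 4 rose. Slc39a14, a metal importer, had 9.63 and 5.81 CPM in CD103+ DC1 and 58.1 and 73.2 CPM in ISG+ DC (3.07 ± 0.49, adjusted p = 0.00557, and 0.0854 without ISG+ DC replicate 3). Fth1, the ferritin heavy chain, had 399.8 and 529 against 839 and 1021 CPM (1.0 ± 0.24, adjusted p = 0.0456), and only the fits without a CD103+ DC1 library kept its call, since adjusted p was 0.172 and 0.5 without ISG+ DC replicate 2 and 3 and 0.109 and 0.119 without those of hosts labelled WT. Ferritin genes have near-identical copies in the genome, so their counts are uncertain. Ftl1, the light chain, had 736 and 781 against 861 and 1037 CPM (adjusted p = 0.556). Of all 26 metabolic rises, 25 kept their call without each CD103+ DC1 library in turn, 15 without ISG+ DC replicate 2 and 6 without replicate 3.

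Matrix and protease genes had the largest share of rises, 12 of 37, with 2 falls and a median of 1.36. Thbs1, which encodes thrombospondin, had 46.8 and 26.3 CPM in CD103+ DC1, 282 and 471 CPM in ISG+ DC and 1629 and 2241 CPM in hosts labelled WT (3.36 ± 0.37, adjusted p = 0.000982). Fn1, fibronectin, rose from 624 and 447 to 2506 and 3229 CPM (2.42 ± 0.27, adjusted p = 0.00102). Tgfbi, a matrix protein induced by TGF-beta, went from 464 and 276 to 1627 and 2007 CPM (2.29 ± 0.29, adjusted p = 0.00162). The 3 genes were steady. As for every called gene, their ISG+ DC and CD103+ DC1 libraries did not overlap.

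None of 18 tested fibroblast and fibrosarcoma matrix markers, collagens among them, passed. Their summed level was 1499 and 673 CPM in CD103+ DC1 and 1408 and 812 CPM in ISG+ DC. Col3a1 had 558 and 197 against 532 and 299 CPM, with replicate 2 the higher in both populations. Whether RNA of such cells bears on the matrix rises was not tested. Other rises in the matrix list included Tgm2, a transglutaminase (3.43 ± 0.47), the metalloproteases Mmp19 (3.13 ± 0.44) and Mmp12 (4.24 ± 0.77), and Plau and Plaur, the urokinase protease and its receptor (1.85 ± 0.43 and 4.34 ± 0.93). Without CD103+ DC1 replicate 2, the change became 4.51 for Tgm2, 5.80 for Mmp12 and 11.47 for Plaur, which was at 0 in replicate 3, and without replicate 3 it became 3.83 for Mmp19 and 3.56 for Plaur. Without ISG+ DC replicate 3, Mmp12, Plau and Plaur lost their calls (adjusted p = 0.119, 0.532 and 0.239). Plau and Plaur also lost them without ISG+ DC replicate 2 (0.056 and 0.0916) and without WT replicate 1 (0.0799 and 0.0653) or 2 (0.0762 and 0.0624), and Mmp12 changed by 4.95 without ISG+ DC replicate 2 and 2.85 without replicate 3. Without ISG+ DC replicate 3, 5 of the 12 rises kept their call.

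Integrins moved in both directions, with 3 rises and 2 falls among 31 genes. Itgal, the alpha chain of LFA-1, fell from 258 and 210.1 to 43.4 and 48.9 CPM (-2.34 ± 0.31, adjusted p = 0.0023). It missed the threshold without ISG+ DC replicate 2 or 3 (adjusted p = 0.0543 and 0.0577). Itga5, the alpha chain of the classical fibronectin receptor, had 38.5 and 49.1 CPM in CD103+ DC1 and 165 and 247 CPM in ISG+ DC (2.24 ± 0.31, adjusted p = 0.00284, and 0.0658 without ISG+ DC replicate 3). Itgax, which encodes CD11c, had 165 and 158 against 493 and 526 CPM (1.66 ± 0.24, adjusted p = 0.00303, and 0.0698 without that library). Itgb2, the beta chain shared by LFA-1 and CD11b, did not pass, at 761 and 480.1 against 1067 and 1313 CPM (adjusted p = 0.105). Tln1, the integrin activator talin, had 1564 and 1179 against 1996 and 2056 CPM (adjusted p = 0.243).

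Among adhesion molecules, F11r, a junctional adhesion molecule, was at 0 in both CD103+ DC1 libraries and had 46.1 and 23.6 CPM in ISG+ DC. Against a limit of 3 counts over CD103+ DC1, its mean in ISG+ DC was 243-fold higher (adjusted p = 0.00162). F11r passed the low-count filter only through ISG+ DC libraries, so this p-value is no independent support. The fitted change moved from 11.70 ± 1.35 to 11.05 without ISG+ DC replicate 2. Cadm1, a cell adhesion molecule of the immunoglobulin superfamily found on DC1, fell from 110.2 and 120.0 to 3.33 and 0.729 CPM (-5.81 ± 1.04, adjusted p = 0.011). Its call was lost without ISG+ DC replicate 2 (-7.28, adjusted p = 0.0561) or 3 (-5.11, adjusted p = 0.17). Cd44, a hyaluronan receptor, had 225 and 244 against 425 and 594 CPM and did not pass (adjusted p = 0.0538). The list held 4 rises and 1 fall among 40.

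Few actin genes differed, with 3 rises and 1 fall among 74. Capg, which caps actin filaments, had 14.1 and 11.97 CPM in CD103+ DC1 and 137 and 249 CPM in ISG+ DC (3.88 ± 0.37, adjusted p = 0.000527) and was steady. Myo1e, an unconventional myosin, rose from 18.3 and 5.81 to 107 and 123 CPM (3.22 ± 0.49, adjusted p = 0.00477, 0.0608 without ISG+ DC replicate 3, and a change of 4.29 without CD103+ DC1 replicate 2). Actb, the main cytoplasmic actin, had 16018 and 18736 against 14051 and 15756 CPM, a difference of -0.22 ± 0.18 (adjusted p = 0.646). Of the guidance genes, 5 rose and 3 fell among 41. Plxnb2, a semaphorin receptor, had 157 and 132 against 471 and 509.5 CPM (1.76 ± 0.24, adjusted p = 0.00255, and 0.0608 without ISG+ DC replicate 3). Notch2 had 1166 and 954 against 871 and 906 CPM (adjusted p = 0.668). Of the 27 rises in adhesion and shape, 26 kept their call without each CD103+ DC1 library in turn and 7 without ISG+ DC replicate 3, while of the 9 falls 8 and 1 did.

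Signalling held the most rises, 46 of 367 genes, with 5 falls. In the pathway from immune receptors through Src and Syk kinases, 10 of 51 genes rose and none fell. Tyrobp, the adaptor DAP12 that couples myeloid receptors to Syk, had 28.2 and 17.6 CPM in CD103+ DC1 and 169.9 and 175 CPM in ISG+ DC (2.90 ± 0.33, adjusted p = 0.00104). Ptpro, a receptor tyrosine phosphatase, went from 9.90 and 8.04 to 99.2 and 117 CPM (3.58 ± 0.36, adjusted p = 0.000648). Both were steady. Fgr, a Src family kinase, had 27.04 and 12.1 against 331 and 292 CPM (3.97 ± 0.39, adjusted p = 0.000599), and the change was 4.67 without CD103+ DC1 replicate 2. Syk itself had 144 and 122 against 451 and 552 CPM (1.92 ± 0.25, adjusted p = 0.00194, and 0.052 without ISG+ DC replicate 3). The phosphatases Ptpn6 and Inpp5d, which oppose these kinases, did not pass (adjusted p = 0.313 and 0.878).

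Of 35 NF-kB pathway genes, 7 rose and none fell, and Irak3, Tnip3, Tnip1 and Nfkbia among them encode inhibitors of the pathway. Irak3, a kinase-like inhibitor of Toll-like receptor signalling, had 1.73 and 1.88 CPM in CD103+ DC1 and 29.5 and 34.5 CPM in ISG+ DC (4.15 ± 0.52, adjusted p = 0.00172). Nfkbiz, a nuclear IkB protein that tunes NF-kB target genes, rose from 26.1 and 35.05 to 153 and 207 CPM (2.56 ± 0.31, adjusted p = 0.00153). These 2 were steady. Tnip3, a partner of the inhibitor A20, had 12.8 and 15.4 against 69.9 and 145 CPM (2.93 ± 0.46, adjusted p = 0.00515), and without ISG+ DC replicate 3 the change was 2.31 (adjusted p = 0.11). Tnip1 and Nfkbia, the latter encoding IkB-alpha, rose by 1.29 ± 0.29 and 1.17 ± 0.28 (adjusted p = 0.038 and 0.0486), and lost the call without ISG+ DC replicate 2 (0.296 and 0.185) or 3 (0.172 and 0.444), without WT replicate 1 (0.0969 and 0.121) or 2 (0.0947 and 0.117) and, for Nfkbia, without CD103+ DC1 replicate 3 (0.0546). The subunit gene Nfkb1 had 220.4 and 108 against 349 and 348 CPM and did not pass (adjusted p = 0.125). Traf2, an adaptor of TNF receptors, differed most between the CD103+ DC1 libraries in this list, with 30.8 and 0.855 CPM in CD103+ DC1 and 30.9 and 13.9 CPM in ISG+ DC. In the MAP kinase list 3 of 53 rose, among them the feedback phosphatase Dusp1 (91.8 and 78.5 against 205 and 260.3 CPM, 1.45 ± 0.26, adjusted p = 0.0105), whose call was lost without ISG+ DC replicate 2 or 3 (adjusted p = 0.0533 and 0.177).

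Of 67 G protein-coupled receptor genes, 6 rose and 2 fell, and the steady rises were a complement and an adhesion receptor. C3ar1, the receptor of the complement fragment C3a, had 20.00 and 16.8 CPM in CD103+ DC1 and 109.7 and 197 CPM in ISG+ DC (3.06 ± 0.34, adjusted p = 0.00102) and was steady. C5ar1, the C5a receptor, had 5.91 and 7.86 against 36.5 and 54.4 CPM (2.73 ± 0.46, adjusted p = 0.00767, and 0.112 without ISG+ DC replicate 3). Emr4, an adhesion receptor now named Adgre4, was at 0 in both CD103+ DC1 libraries and had 24.03 and 23.9 CPM in ISG+ DC and 14.02 and 23.04 CPM in hosts labelled WT. Against a limit of 3 counts over CD103+ DC1, its mean in ISG+ DC was 167-fold higher (adjusted p = 0.00242). Emr4 passed the low-count filter only through ISG+ DC libraries, so this p-value is no independent support. Gnai2, an inhibitory G protein subunit, had 834 and 626 against 1025 and 1301 CPM and did not pass (adjusted p = 0.2).

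The Emr4 promoter is printed because the gene had no read in CD103+ DC1. It lies at chr17:55749734-55750033 on the plus strand (RefSeq, GRCm38.p6, 250 bases before to 50 after the start). Capitals mark 1 match to C/EBP (TTGCNNAA) and 1 to PU.1 (GAGGAAGT), both on the strand opposite to the gene.
Emr4: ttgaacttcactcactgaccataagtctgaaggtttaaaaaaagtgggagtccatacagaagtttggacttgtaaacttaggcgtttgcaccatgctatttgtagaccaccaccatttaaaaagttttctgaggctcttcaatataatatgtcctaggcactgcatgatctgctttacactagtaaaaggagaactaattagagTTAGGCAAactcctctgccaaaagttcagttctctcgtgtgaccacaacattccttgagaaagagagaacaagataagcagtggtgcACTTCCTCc

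Chemokine receptors had 4 rises and 1 fall among 14 genes. Ccrl2, an atypical receptor that binds chemerin, rose from 1.93 and 3.93 to 56.2 and 36.9 CPM (4.03 ± 0.54, adjusted p = 0.00228) and was steady. Ccr1, a receptor for inflammatory chemokines, had 3.19 and 13.7 against 104 and 146 CPM (3.95 ± 0.59, adjusted p = 0.00404). Its change was 3.18 and 5.31 without CD103+ DC1 replicate 2 and 3, and its adjusted p 0.0586 without ISG+ DC replicate 3. Cxcr4, the receptor of Cxcl12, had 5.85 and 7.01 against 34.4 and 57.4 CPM (2.84 ± 0.44, adjusted p = 0.00494, and 0.077 without ISG+ DC replicate 3).

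The fall was Cxcr3, the receptor of Cxcl9 and Cxcl10, with 41.1 and 75.4 CPM in CD103+ DC1 and 0.755 and 1.17 CPM in ISG+ DC (-5.91 ± 1.33, adjusted p = 0.0366). Its call was lost without CD103+ DC1 replicate 3 (adjusted p = 0.128) and without ISG+ DC replicate 2 or 3 (0.283 and 0.328). Ccr7, the receptor that guides mature DC to lymph nodes, had 199.8 and 73.3 against 84.2 and 90.1 CPM, with overlapping groups (adjusted p = 0.56).

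Cytokine receptor and JAK-STAT genes had 7 rises and no fall among 48. Il1r2, a decoy receptor for interleukin-1 that is also a neutrophil marker, had 8.04 and 9.23 CPM in CD103+ DC1, 118 and 131 CPM in ISG+ DC and 56.7 and 68.8 CPM in hosts labelled WT (3.85 ± 0.39, adjusted p = 0.000717). Il2rg, the common gamma chain, rose from 28.6 and 27.7 to 169.9 and 218 CPM (2.78 ± 0.30, adjusted p = 0.000949). Both were steady. The summed level of the 12 neutrophil markers in the table was 22.7 and 45.5 CPM in CD103+ DC1 and 183 and 213 CPM in ISG+ DC. Il1r2 itself made up most of that sum in ISG+ DC, so the sum is no separate reading of neutrophils. Il4ra had 155 and 83.1 against 416 and 384 CPM (1.74 ± 0.31, adjusted p = 0.0112), and its call was lost without ISG+ DC replicate 2 or 3 (adjusted p = 0.11 and 0.111). Csf2rb, a chain of the GM-CSF receptor, had 389 and 221 against 592 and 697 CPM and did not pass (adjusted p = 0.0799).

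Growth factor and receptor kinase genes had 6 rises among 41. Axl, a receptor tyrosine kinase that binds dying cells through Gas6, had 141 and 68.7 CPM in CD103+ DC1 and 539 and 798 CPM in ISG+ DC (2.67 ± 0.36, adjusted p = 0.00231), and the change was 3.27 without CD103+ DC1 replicate 2. Of 58 channel and pump genes, 3 rose and 2 fell. Tmem176b, which encodes a cation channel of internal membranes, rose from 18.2 and 11.3 to 118 and 124 CPM (3.02 ± 0.39, adjusted p = 0.00176). Of the 46 signalling rises, 42 kept their call without each CD103+ DC1 library in turn, 23 without ISG+ DC replicate 2 and 14 without replicate 3. Of the 5 falls, 1 kept it without each CD103+ DC1 library in turn and none without an ISG+ DC library.

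**Figure D4:**
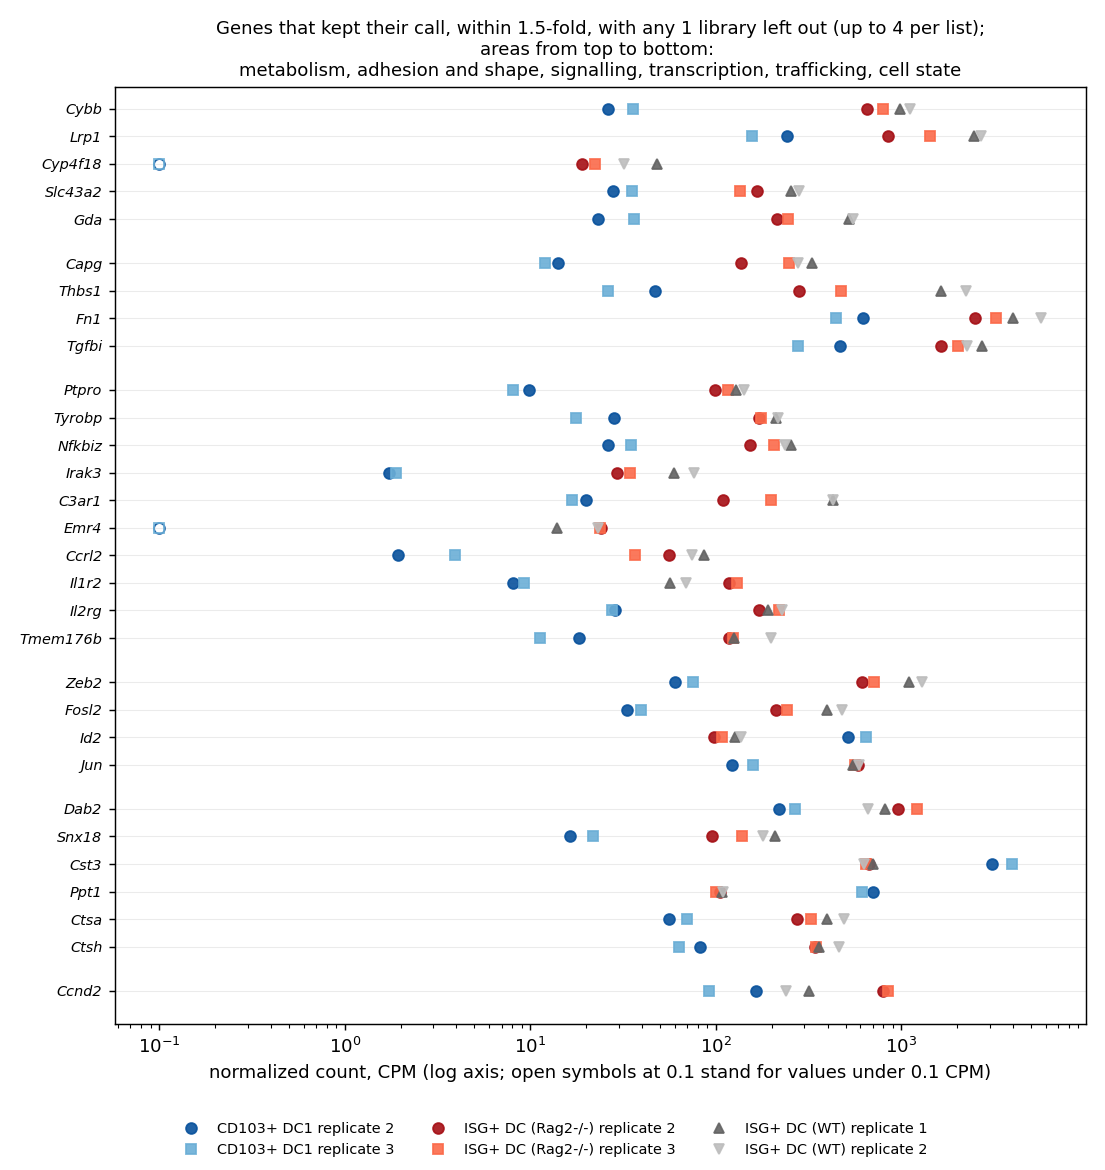
Normalized counts (CPM, log axis) of genes on functional lists that kept their call, within 1.5-fold, whichever library was left out, up to 4 per list; each symbol is 1 library. ISG+ DC lie to the right of both CD103+ DC1 libraries except for Id2, Cst3 and Ppt1, and open symbols mark Cyp4f18 and Emr4, which had no count in CD103+ DC1.

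Transcription factors were called more often than all genes, with 20 of 139 higher and 3 lower and a list median of 0.47. Zeb2, a zinc finger repressor known to oppose DC1 development, had 59.99 and 75.7 CPM in CD103+ DC1, 614 and 713 CPM in ISG+ DC and 1095 and 1285 CPM in hosts labelled WT (3.29 ± 0.26, adjusted p = 0.000158). Id2, an inhibitor of E proteins that DC1 need, showed the reverse, with 513 and 646 CPM in CD103+ DC1 and 97.9 and 107 CPM in ISG+ DC (-2.50 ± 0.26, adjusted p = 0.000812). For both genes ISG+ DC of either host lay apart from CD103+ DC1. The AP-1 genes Fosl2 and Jun rose from 33.2 and 39.5 to 212 and 241 CPM (2.64 ± 0.27, adjusted p = 0.00079) and from 123 and 159.5 to 583 and 563 CPM (2.02 ± 0.25, adjusted p = 0.00154). Fos, another AP-1 subunit, did not pass, with 354 and 277 against 340.0 and 454 CPM (adjusted p = 0.614).

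Further rises included factors of myeloid differentiation. Cebpa and Cebpb rose by 2.74 ± 0.45 and 2.06 ± 0.35 (adjusted p = 0.00685 and 0.00867). Both lost the call without ISG+ DC replicate 3 (adjusted p = 0.0815 and 0.13), and Cebpa also without replicate 2 (0.0523). Vdr, the vitamin D receptor, had 0.531 and 4.27 against 39.8 and 70.97 CPM (4.66 ± 0.84, adjusted p = 0.0111), and the change became 3.68 and 6.70 without CD103+ DC1 replicate 2 and 3 (adjusted p = 0.13 without ISG+ DC replicate 3). Several rises of the transcription factor list also lost their call without a library of hosts labelled WT. Other rises included Creb5, Bach1, Bhlhe40, Foxp1, Lmo2, Ets2, Hivep2, Etv5, Prdm1, Runx1, Mef2c, Klf4 and Elk3, by 1.16 ± 0.27 (Klf4) to 4.45 ± 0.98 (Prdm1). These 13 lost their call without ISG+ DC replicate 3, with adjusted p from 0.092 (Creb5) up to 0.319 (Elk3). Without ISG+ DC replicate 2 all but Creb5 and Bach1 did, and Mef2c also did without CD103+ DC1 replicate 3 (adjusted p = 0.0616). Without CD103+ DC1 replicate 2, where the lone library was at 0, Prdm1 had a fitted change of 10.25, and without replicate 3 Creb5 had 4.72.

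Mycl1, a Myc family member found in DC1, fell from 116 and 86.00 to 11.01 and 4.59 CPM (-3.69 ± 0.64, adjusted p = 0.00924). Without ISG+ DC replicate 3 it did not pass (adjusted p = 0.157), and without replicate 2 the change was -4.46. Rarg, a retinoic acid receptor, was read at 30.2 and 0 CPM in CD103+ DC1 and 53.97 and 37.9 CPM in ISG+ DC and did not pass (adjusted p = 0.631). Of 45 chromatin enzymes only Hdac5, a histone deacetylase, was called, at 20.7 and 6.84 against 69.3 and 97.8 CPM (2.58 ± 0.52, adjusted p = 0.0219), with 3.60 without CD103+ DC1 replicate 2 and adjusted p = 0.0852 and 0.229 without ISG+ DC replicate 2 and 3. Of the 21 rises in transcription, 20 kept their call without each CD103+ DC1 library in turn, 8 without ISG+ DC replicate 2 and 4 without replicate 3.

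**Figure D5:**
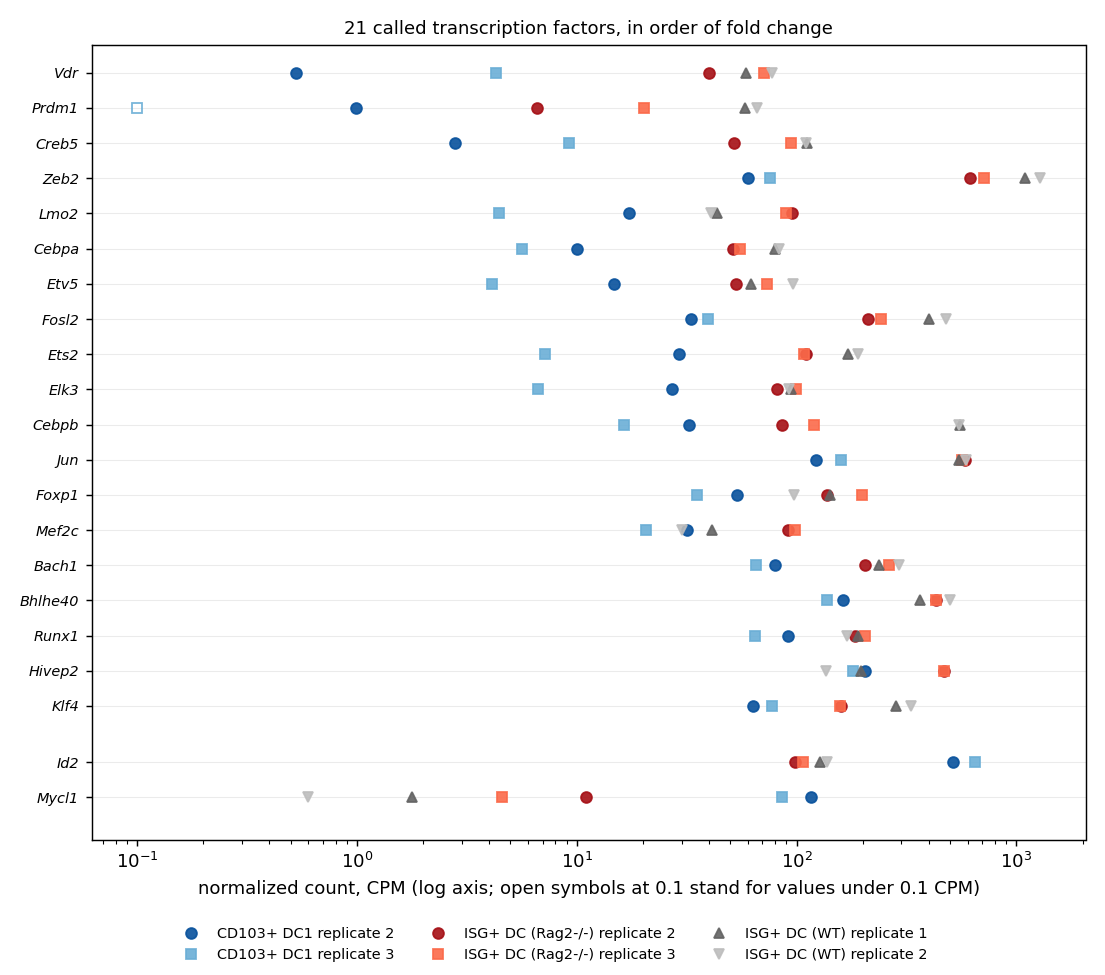
Normalized counts (CPM, log axis) of 21 called transcription factors in each of the 6 libraries, ordered by fold change, with those that fell at the bottom. Symbols for CD103+ DC1 replicate 3 (light blue squares) lie well to the left of replicate 2 for Lmo2, Etv5, Ets2 and Elk3, and close to it for Zeb2, Fosl2 and Jun.

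Trafficking genes had 15 rises and 5 falls among 232, and 14 of the calls lay in lysosomal genes. No Rab or Arf GTPase of 77 was called, and their median was 0.05. Dab2, a clathrin adaptor of endocytosis, had 220.0 and 267 CPM in CD103+ DC1 and 959.5 and 1217 CPM in ISG+ DC (2.16 ± 0.25, adjusted p = 0.00127). Snx18, a sorting nexin that shapes endocytic membranes, rose from 16.3 and 21.9 to 95.8 and 139 CPM (2.62 ± 0.34, adjusted p = 0.00199). Both were steady. Myof, a membrane repair protein, had 92.2 and 85.5 against 244 and 287 CPM (1.58 ± 0.26, adjusted p = 0.0068), and its call was lost without ISG+ DC replicate 2 or 3 (adjusted p = 0.0511 and 0.125). Cltc, the clathrin heavy chain, had 537 and 348 against 613 and 785 CPM and did not pass (adjusted p = 0.265). In autophagy, Dram1 alone was called among 33 genes, from 1.46 and 0 to 13.96 and 20.3 CPM (4.32 ± 1.0, adjusted p = 0.0425). It lost the call without ISG+ DC replicate 2 or 3 (adjusted p = 0.134 and 0.254) or a library of hosts labelled WT (0.08 and 0.103), and its change was 10.60 and 3.56 without CD103+ DC1 replicate 2 and 3.

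Lysosomal genes split, with 9 of 55 higher and 5 lower. The proteases Ctsa and Ctsh rose from 55.9 and 70.3 to 275 and 326 CPM (2.25 ± 0.27, adjusted p = 0.00154) and from 82.6 and 63.6 to 341 and 346 CPM (2.23 ± 0.27, adjusted p = 0.00154). Cst3, cystatin C, which inhibits cysteine cathepsins, fell from 3078 and 3922 CPM in CD103+ DC1 to 671 and 644 CPM in ISG+ DC (-2.41 ± 0.23, adjusted p = 0.000527). Ppt1, a palmitoyl-protein thioesterase of the lysosome, fell from 707 and 609.9 to 106 and 101 CPM (-2.68 ± 0.25, adjusted p = 0.000527). These 4 were steady, and hosts labelled WT lay with ISG+ DC, at 706 and 626 CPM for Cst3 and 107 and 109 CPM for Ppt1.

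Other rises included Ctsd, Ctsc, Ctsb, Tpp1, Manba and the membrane protein Lamp1, by 1.46 ± 0.26 (Lamp1) to 2.87 ± 0.63 (Manba). Ctsd, an aspartic protease, had 72.2 and 44.1 against 215 and 317 CPM (2.19 ± 0.32, adjusted p = 0.00333, and 0.0676 without ISG+ DC replicate 3). Tpp1, Lamp1 and Manba lost the call without ISG+ DC replicate 2 too (adjusted p = 0.0557, 0.069 and 0.0834), and Manba without CD103+ DC1 replicate 3 (0.0586). Other falls included the proton pump subunits Atp6v0a2 and Atp6v1d (-1.15 ± 0.25 and -1.50 ± 0.36). Their adjusted p-values were 0.0333 and 0.0468, and both lost the call without ISG+ DC replicate 2 (adjusted p = 0.311 and 0.268), replicate 3 or a library of hosts labelled WT. Atp6v1d also did without CD103+ DC1 replicate 3 (0.166). Psap, a precursor of sphingolipid activators, had 5117 and 2385 against 1679 and 2289 CPM, with its 2 CD103+ DC1 libraries far apart (adjusted p = 0.19). Without ISG+ DC replicate 3, 2 of the 9 rises and 2 of the 5 falls kept their call.

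Promoters of a rising protease and of a falling enzyme are set side by side, since both genes act in the lysosome. Both are RefSeq sequences of GRCm38.p6, from 250 bases before to 50 after the start: Ctsd at chr7:142387778-142388077 on the minus strand and Ppt1 at chr4:122835977-122836276 on the plus strand. Capitals mark 1 match to the TFEB M-box (TCACGTGA) in Ctsd, and 1 match each to the interferon response element core and C/EBP in Ppt1.
Ctsd: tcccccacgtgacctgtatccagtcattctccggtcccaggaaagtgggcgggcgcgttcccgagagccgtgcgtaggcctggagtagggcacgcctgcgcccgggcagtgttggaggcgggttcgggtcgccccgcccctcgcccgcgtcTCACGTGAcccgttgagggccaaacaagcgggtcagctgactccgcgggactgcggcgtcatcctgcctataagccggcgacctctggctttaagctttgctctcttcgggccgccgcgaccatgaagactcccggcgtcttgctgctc
Ppt1: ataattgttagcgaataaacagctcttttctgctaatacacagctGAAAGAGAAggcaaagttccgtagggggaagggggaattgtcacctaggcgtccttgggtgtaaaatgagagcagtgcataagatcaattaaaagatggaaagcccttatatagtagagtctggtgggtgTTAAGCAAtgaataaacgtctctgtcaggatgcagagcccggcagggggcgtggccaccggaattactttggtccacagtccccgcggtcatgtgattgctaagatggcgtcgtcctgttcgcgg

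Over all genes, 10398 of 13223 were matched to 13204 RefSeq promoters of 300 bases, 1064 of them by an older symbol, including 386 of the 488 called genes. Each motif was searched on both strands and apart from the others, so matches of different motifs may overlap. The interferon response element core GAAANNGAA lay in 16.03% of 393 promoters of rising genes, 12.96% of 108 promoters of falling genes and 7.54% of all. For AP-1 the shares were 10.4%, 6.48% and 5.48%. For PU.1 (GAGGAAGT) they were 8.14%, 5.56% and 3.30%. C/EBP was found in 11.96%, 9.26% and 8.69%, and RUNX in 6.87%, 7.41% and 3.85%. The M-box lay in 1.53%, 0.926% and 1.77%. These shares are descriptions, and a match does not show that a factor binds.

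Genes of the cell state lists gave 6 rises and 5 falls among 252. Cell cycle and replication genes had a median of -0.94, with 1 rise and 3 falls among 62. Ccnd2, cyclin D2, rose from 164 and 91.98 to 799 and 847 CPM (2.68 ± 0.32, adjusted p = 0.00143) and was steady. Mki67, a marker of cycling cells, fell from 1373 and 2287 to 531 and 492 CPM (-1.84 ± 0.29, adjusted p = 0.00511). Its call was lost without ISG+ DC replicate 2 or 3 (adjusted p = 0.0847 and 0.138). Top2a and Ezh2, a topoisomerase and a histone methyltransferase, were the other falls (-1.39 ± 0.31 and -1.89 ± 0.39). Both lost the call without ISG+ DC replicate 2 (adjusted p = 0.202 and 0.241) or 3 (0.425 and 0.239), and Ezh2 also without CD103+ DC1 replicate 3 (-1.20, adjusted p = 0.0946).

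Ribosomal protein genes were highest in CD103+ DC1 replicate 3. None of 78 was called, with a median of -0.43. The summed level of all 81 in the table was 33093 and 48066 CPM in CD103+ DC1 and 29014 and 29696 CPM in ISG+ DC. Without CD103+ DC1 replicate 2, 35 were called lower and 6 higher in ISG+ DC. Rpl34 had 212 and 0 CPM in CD103+ DC1 and 11.7 and 106 CPM in ISG+ DC. The 39 proteasome subunits in the table also had their highest sum in CD103+ DC1 replicate 3, at 3604 and 4846 CPM in CD103+ DC1 and 2971 and 3503 CPM in ISG+ DC, and Psmd7 had 129 and 408 against 87.4 and 88.5 CPM. Psmb9, an immunoproteasome subunit, was the 1 called of 38, from 121 and 167 to 41.4 and 41.5 CPM (-1.79 ± 0.35, adjusted p = 0.0163), and its call was lost without ISG+ DC replicate 2 or 3 (adjusted p = 0.175 and 0.224). Whether RNA quality or depth bears on this order was not tested.

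Stress and survival genes had few calls. In ER folding and heat shock, 3 of 35 rose and 1 fell. The inducible heat shock gene Hspa1b had 339 and 243 against 914 and 601 CPM (1.38 ± 0.28, adjusted p = 0.0226). It shares nearly all its coding sequence with Hspa1a, so the split of reads between these copies is uncertain. It lost the call without ISG+ DC replicate 2 or 3 (adjusted p = 0.258 and 0.0735) or a library of hosts labelled WT (0.061 and 0.06). Dapk1, a kinase of cell death, was 1 of 2 rises among 39 apoptosis genes, from 34.5 and 35.9 to 137 and 117 CPM (1.85 ± 0.32, adjusted p = 0.0084). Its call was lost without ISG+ DC replicate 2 or 3 (adjusted p = 0.105 and 0.077). Mcl1, a survival factor, had 487 and 467 against 761 and 741 CPM and did not pass (adjusted p = 0.163).

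On no list stood 155 rises and 67 falls, and several of the largest steady changes were among them. Plcb1, a phospholipase C that acts below G protein-coupled receptors, had 0.266 and 0.171 CPM in CD103+ DC1 and 17.7 and 31.3 CPM in ISG+ DC (6.65 ± 0.77, adjusted p = 0.00123). It rested on 4 and 1 counts in CD103+ DC1, so the size of the fold is uncertain. Sulf2, which removes sulfate from heparan sulfate chains outside the cell, rose from 7.84 and 9.06 to 194 and 297 CPM (4.87 ± 0.37, adjusted p = 0.000154). Cd72, a receptor with inhibitory motifs, had 12.95 and 13.3 against 351 and 292 CPM (4.61 ± 0.31, adjusted p = 0.000109) and was lower in hosts labelled WT, at 141 and 132 CPM. B cells also carry Cd72, and the summed level of the 11 B cell markers in the table was 40.5 and 15.9 CPM in CD103+ DC1 and 4.91 and 2.55 CPM in ISG+ DC.

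Pltp, a phospholipid transfer protein, rose from 14.7 and 9.40 to 231 and 349 CPM (4.57 ± 0.36, adjusted p = 0.000158). Emilin2, an extracellular matrix glycoprotein, had 17.9 and 23.6 against 311 and 439 CPM (4.18 ± 0.32, adjusted p = 0.000154). The adaptor Pram1 rose from 2.13 and 1.88 to 69.00 and 45.03 CPM (4.81 ± 0.59, adjusted p = 0.00154), and Hr, a nuclear corepressor, from 2.99 and 3.42 to 47.6 and 79.6 CPM (4.32 ± 0.49, adjusted p = 0.00112). Anpep, an aminopeptidase at the cell surface, fell from 455 and 331 to 75.9 and 69.8 CPM (-2.43 ± 0.27, adjusted p = 0.000994). In hosts labelled WT it had 419.7 and 430.1 CPM, within the range of CD103+ DC1.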

How the data were processed

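RNA of sorted DC was made into libraries with a stranded total RNA kit, per the labels' protocols, whose molecule field instead names polyA RNA. The deposited values are estimated counts per gene symbol, which the authors made with Bowtie 1.2.3 and RSEM 1.3.1 on mouse build mm9, per the submitters' processing notes. The labels read here do not state the annotation, strand setting or filters. Reads of overlapping or near-identical genes may therefore be split. Of all values 16.1% were not whole and were rounded. Library totals ranged from 6023510 to 15368616, which sets the counting error of low genes.

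Tests were edgeR 4.0.16 quasi-likelihood fits (R 4.3.3) on all 6 libraries in 3 groups, with TMM scaling, filterByExpr (13223 of 23224 symbols kept), a two-sided contrast of ISG+ DC with CD103+ DC1, and Benjamini-Hochberg adjustment at 0.05. The fit left 3 residual degrees of freedom, so the spread was moderated across genes, and its biological coefficient of variation was 0.703. Adjusted p-values in the text come from this fit or from the same fit without the named library. CPM are TMM-scaled. A fold against a group at 0 was computed from the mean of the other group, against 3 counts summed over the group at 0. That limit covers counting error alone. Alternatives used DESeq2 1.42.0 and limma 3.58.1. The script was tested on simulated data with planted changes. The simulated spread was equal in all groups and smaller than that of these data. That test therefore does not show how the calls behave at the spread seen here. Replicate numbers are shared by the populations, and whether they pair the libraries is not known. Deviations within same-numbered libraries correlated at r = -0.0024 over 13223 genes. A correlation over all genes cannot decide whether such libraries shared tumors or an experiment. Replicates differed by more than sampling noise.

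Members, lists and rules were chosen with earlier results of these data known. From each functional list, up to 4 steady called genes with the smallest p, the called but not steady gene with the smallest p, the 2 most abundant uncalled genes and the gene whose CD103+ DC1 libraries differed most were eligible to be named, as were the 12 largest steady rises and falls outside the identity lists, and, for other cell types, called and most abundant members. Slc2a1, Slc16a3, Pfkfb4, Alox5, Ltb4r1, Arg1, Fth1, Mmp19, Mmp12, Plau, Plaur, Itga5, Itgax, Cadm1, Syk, Tnip1, Nfkbia, Cxcr4, Cxcr3, Cebpa, Cebpb, Vdr, the factors listed without values, Mycl1, further lysosomal genes, Top2a and Ezh2 were added after their values were seen, as were genes of the closing section. Promoters are RefSeq sequences of GRCm38.p6. Some genes that the rule names are not reported here. As the counts were made on mm9, genes were joined by symbol alone.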

Additional observations from a re-analysis of the deposited data

How the results depend on the processing

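With all libraries 374 genes were called higher and 114 lower in ISG+ DC. Leaving out 1 library gave 104 to 1096 higher and 17 to 640 lower, lowest without ISG+ DC replicate 3 and highest without CD103+ DC1 replicate 2. With the low-count filter run again, chosen after seeing the data, the counts were 1291 and 777 without replicate 2 of CD103+ DC1, 594 and 180 without replicate 3, 288 and 81 without replicate 2 of ISG+ DC, and 225 and 53 without replicate 3. DESeq2 called 679 and 399, edgeR with no filter 671 and 416, and limma-voom with quality weights 309 and 219. A replicate block over the 4 libraries called 453 and 258, although it is not known whether the numbers pair the samples. The other settings stayed within 1.5 times, from 262 to 377 higher and 104 to 127 lower. Of 78 called genes chosen by rule, 65 kept the call with limma-voom, 75 with the 4 libraries alone, and 78 with DESeq2, the block, either other scaling, either filter and thinning. Leaving out ISG+ DC replicate 2 or 3 kept 63 and 52. Of 106 genes chosen by rule and not called, 35 changed sign without 1 library while still not called. The 1 change of sign that came with a call was Rpl34, at 12.39 without CD103+ DC1 replicate 2, the other library being at 0, and down to -3.18 without ISG+ DC replicate 3. The depth of CD103+ DC1 replicate 3 limits low genes, since 3 counts in it stand for 0.513 CPM.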

Other observations

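Several pairs of related genes went in opposite directions, chosen after their values were seen and with no test of the pairing. Cyfip1 and Cyfip2 encode alternative subunits of the WAVE complex, which drives branched actin. Cyfip1 had 115 and 53.9 CPM in CD103+ DC1 and 288 and 313 CPM in ISG+ DC (1.82 ± 0.35, adjusted p = 0.0152), with a change of 2.47 without CD103+ DC1 replicate 2. Cyfip2 had 537 and 386 against 111 and 113 CPM, CD103+ DC1 first (-2.04 ± 0.28, adjusted p = 0.00233). Without ISG+ DC replicate 2 or 3 both missed the threshold, Cyfip1 at adjusted p = 0.0997 and 0.163 and Cyfip2 at 0.0549 and 0.0702.

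Kinesin heavy chains carry cargo along microtubules. Kif5a fell from 48.7 and 37.96 CPM in CD103+ DC1 to 1.38 and 0.729 CPM in ISG+ DC (-5.34 ± 0.82, adjusted p = 0.00492, and 0.0825 without ISG+ DC replicate 3). Kif5c was at 0 in both CD103+ DC1 libraries and had 7.67 and 12.5 CPM in ISG+ DC (adjusted p = 0.0236). Against a limit of 3 counts over CD103+ DC1, its mean in ISG+ DC was 70.4-fold higher. Kif5c passed the low-count filter only through ISG+ DC libraries, so its p-value is no independent support. Its call was lost without ISG+ DC replicate 2 or 3 (0.0811 and 0.168) and without WT replicate 1 (0.0587). Fgd2 and Fgd4 encode exchange factors for the GTPase Cdc42. Fgd2 fell from 326 and 237 to 80.3 and 81.5 CPM (-1.80 ± 0.29, adjusted p = 0.00593), and Fgd4 rose from 4.25 and 1.37 to 19.6 and 27.3 CPM (3.0 ± 0.65, adjusted p = 0.0305). Neither kept its call without ISG+ DC replicate 2 (0.103 and 0.107) or 3 (0.122 and 0.242), and Fgd4 also lost it without a library of hosts labelled WT (0.0777 and 0.0699) and changed by 4.08 without CD103+ DC1 replicate 2.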
